A study of Mus musculus with 3 samples.

Results

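The genes whose names start with Olfr encode the odorant receptors of the mouse, and 3242 of the 996514 autosomal CCGG sites listed in at least 1 of 3 MethylRAD libraries lay in or within 5 kb of such a gene. The genes and their coordinates were those of GENCODE M21 basic on GRCm38, in which 1399 Olfr genes were on 18 autosomes, 1128 of them protein coding and 271 pseudogenes. At least 1 listed site was found around 1185 of these genes and none around 214. The median was 2 sites per gene and the most was 36, around Olfr56. Of the 3242 sites, 2786 were near 1 Olfr gene and 456 near 2 or more, so that neighbouring genes shared sites, and 155 were also inside a gene of another name.

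The study asked how DNA methylation changes when mouse embryonic stem cells differentiate with and without activity of the histone demethylase LSD1. All 3 libraries came from E14Tg2A, an established embryonic stem cell line. The undifferentiated cells were kept with leukemia inhibitory factor (day 0), the untreated cells were taken on day 7 after withdrawal of that factor and addition of retinoic acid, and the treated cells were handled in the same way with 3 mM of the LSD1 inhibitor pargyline. Each condition was represented by 1 library. A spread between cultures was therefore not measured, no test was made, and the 95% intervals below cover counting error only. PCR copies of a fragment were not separated. RNA was not measured, so the identity of the cells could not be checked against marker genes here.

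Odorant receptor genes form the largest gene family of the mouse genome and stand in long arrays on many chromosomes, usually with the whole protein in a single coding exon. Each olfactory sensory neuron expresses a single receptor from a single allele, while the other receptor genes stay in heterochromatin, and LSD1 is known to take part in the activation of the chosen receptor in those neurons. Embryonic stem cells are not olfactory cells, and most Olfr genes are silent in them. In MethylRAD, the enzyme FspEI cuts on both sides of a methylated CCGG and releases a fragment of about 30 bases, so reads at a site increase with its methylation and an unmethylated site gives no reads. The deposited lists hold sites with at least 5 reads, so a site that is not listed can have had up to 4.

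The fragments on which the results turn are shown first, each as the 30 bases of the GRCm38 reference around the site, with CCGG in capitals. The first set, given on the coding strand, shows the CCGG sequence found most often in Olfr coding exons, in fragments found once in the assembled chromosomes (Olfr13, Olfr262, Olfr702 and Olfr1294) and in a fragment found 6 times (Olfr1280), which yielded no listed site.
Olfr13, chr6:43174334-43174363: tgatgtcctatgaCCGGtatgttgcaatct
Olfr262, chr19:12241278-12241307: ccatggcctatgaCCGGtatgctgctattt
Olfr702, chr7:106824146-106824175: ttatgtcctatgaCCGGtatgttgctgtct
Olfr1294, chr2:111537909-111537938: caatggcttatgaCCGGtatgtggccatct
Olfr1280, chr2:111315830-111315859: caatggcctatgaCCGGtatgtggccatct
The second set, on the reference plus strand, shows the site with the most reads (near Olfr1274-ps) and sites with the largest differences between libraries.
Olfr1274-ps, chr2:90395148-90395177: cctggcactgtccCCGGagcgggtcgcgcc
Olfr518, chr7:108883628-108883657: attcaaaatgtccCCGGagcaaacaaagat
Olfr547, chr7:102531283-102531312: atgctcaatgtcaCCGGttgctctcacaga
Olfr54, chr11:51026720-51026749: aagcttgagcactCCGGttccatctctaga
Olfr145, chr9:37893084-37893113: gaggtcaggacatCCGGtgctaacttaggg
Olfr1389, chr11:49418105-49418134: caaaaaaaaaagcCCGGgaccagatggggt

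The DNA around Olfr genes was poor in CCGG. The 18.8 Mb in or within 5 kb of an Olfr gene had a GC content of 38.2% and 4.97 CpG per kb, against 42.0% and 8.54 CpG per kb in the other 2377 Mb of the autosomes. These windows held 6437 reference CCGG motifs, or 0.342 per kb, against 0.637 per kb elsewhere. Of the motifs around Olfr genes, 57.4% (3692) had a 30-base fragment that occurred once in the assembled chromosomes, against 80.4% of the other motifs. Repeats held 55% of the motifs around Olfr genes and 29.0% of the others. Of the 3242 listed sites, 93.9% were in windows of low CpG content, against 90.3% of the other listed sites. Such windows had a CpG ratio below 0.48 in the 500 bp around the site. Windows of high CpG content held 2 of the Olfr sites (0.0617%) and 1.57% of the others.

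CCGG motifs around Olfr genes were listed less often than others when all motifs were counted, and this order turned around among motifs with a unique fragment. In the undifferentiated library, 41.8% of the motifs around Olfr genes (95% Wilson interval 40.6 to 43.0%) and 54.5% of the other motifs were listed. The untreated library listed 41.3% around Olfr genes and 55.2% elsewhere, and the treated library 41.6% and 55.8%. Among unique fragments, 72.9% of the Olfr motifs (71.4 to 74.3%) and 67.7% of the other motifs were listed in undifferentiated cells. The authors kept uniquely mapped reads, and of the 2745 Olfr motifs with a fragment found more than once, 0.0729% were listed in undifferentiated, 1.60% in untreated and 2.95% in treated cells, against 0.373%, 1.58% and 2.59% of such motifs elsewhere.

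**Figure D1:**
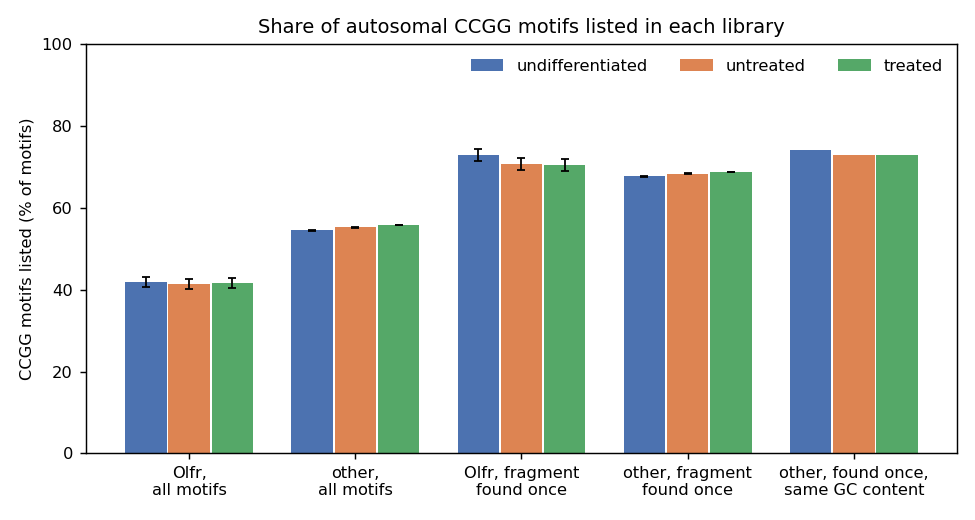
Share of autosomal CCGG motifs with at least 5 reads (y axis, percent) around Olfr genes and elsewhere, for all motifs, for motifs whose fragment was found once and for other motifs brought to the same GC content; colours give the 3 libraries and bars 95% Wilson intervals, which were not computed for the last set. Olfr motifs stand at 41.3 to 41.8% when all are counted and at 70.4 to 72.9% when the fragment is unique.

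The other unique motifs, when weighted to the GC content of the Olfr motifs (in 500 bp, bins of 2 percentage points), were listed at 74.0%, 73.0% and 73.0% in undifferentiated, untreated and treated cells. The unique Olfr motifs were listed at 72.9%, 70.8% and 70.4%. Relative to undifferentiated cells, the listing of Olfr motifs differed by -2.11 percentage points in untreated and -2.52 in treated cells, and that of the GC-matched others by -0.975 points in untreated cells. All other unique motifs together were listed more often on day 7, by 0.633 and 1.09 points. These differences were not adjusted for library depth. At the smallest CCGG total, the expected listing of all Olfr motifs was 40.2%, 38.1% and 41.6%. That of all other motifs was 52.4%, 51.3% and 55.8%. At a GC content of 40 to 45%, the unique Olfr motifs were listed at 75.3%, 71.4% and 69.1%, and the other motifs of this content at 76.9%, 74.8% and 73.6%. At 50 to 55%, the Olfr motifs were listed at 76.4%, 78.5% and 78.5%, and the others at 75.8%, 77.1% and 77.5%.

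Within the receptor genes, coding exons were the most densely listed place. Of the 381 unique motifs in Olfr coding exons, 81.4%, 80.3% and 80.6% were listed in undifferentiated, untreated and treated cells. The 882 unique motifs within 1 kb of an Olfr start site were listed at 76%, 72% and 74.3%. Upstream of the genes the values were 71.9%, 69.6% and 68.8%, and downstream 70.7%, 68.5% and 67.2%. Unique motifs 5 to 100 kb away from Olfr genes were listed less often, at 64.2%, 65% and 65.6%.

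Most listed Olfr sites were common to the libraries. All 3 libraries listed 2269 of the 3242 sites (70.0%), against 72.3% of the other CCGG sites. The undifferentiated library alone listed 229 (7.06%, against 5.19% elsewhere), the untreated library alone 99 (3.05%, against 3.01%) and the treated library alone 187 (5.77%, against 5.61%). Of the sites listed in undifferentiated cells, 325 (11.8%) were not listed in untreated cells, against 9.58% elsewhere, and 393 (14.2%) were not listed in treated cells, against 11.5% elsewhere. These sites had few reads to begin with, with a median of 10 and 11 reads in undifferentiated cells. Listed Olfr sites had a median of 26, 28 and 22 reads in the 3 libraries, and the other sites 27, 30 and 23.

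Summed over all 3242 sites, the reads around Olfr genes were nearly the same share of each library. The sites held 91868 reads in undifferentiated, 103513 in untreated and 73758 in treated cells. The lists held 31614085, 36654600 and 25767119 CCGG reads, so these were 2906, 2824 and 2862 reads per 1000000 CCGG reads, called scaled reads below, the scale of all ratios unless another is named. The log2 ratio was -0.041 (95% interval -0.054 to -0.028) for untreated over undifferentiated, -0.022 (-0.036 to -0.0077) for treated over undifferentiated and 0.02 (0.0059 to 0.033) for treated over untreated. The intervals cover counting error only, and the direction of the summed ratio taken alone was not stable. Over the sites listed in all 3 libraries, it was 0.019, -0.0063 and -0.026. Against other CCGG sites, the change was -0.041, -0.021 and 0.02 over all sites. Over those listed in all 3 libraries, the change against other sites was -0.015, -0.0017 and 0.013. The summed ratio of sites 5 to 100 kb away was -0.039, 0.007 and 0.046. For the 2269 sites listed in all libraries, the median log2 ratio per site was 0.05, 0.032 and 0.019, against 0.076, 0.073 and 0.006 for other sites, with quartiles in the first comparison of -0.58 and 0.65 around Olfr genes and of -0.55 and 0.67 at other sites.

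Sites in the coding exons of the receptor genes and near their start sites were lower on day 7. The 355 sites in Olfr coding exons held 420, 371 and 351 scaled reads in undifferentiated, untreated and treated cells, a log2 ratio of -0.18 (-0.22 to -0.15) for untreated and -0.26 (-0.30 to -0.22) for treated over undifferentiated. The 778 sites within 1 kb of an Olfr start site held 824, 733 and 738, a log2 ratio of -0.17 and -0.16. Coding exons and start site windows were the lowest of the places compared. The start site windows were drawn without regard to the other places, so a site can count in both. Sites inside the genes but outside coding exons gave -0.075 and -0.0064, and the 980 sites upstream -0.047 and -0.018. The 889 downstream sites gave 0.078 and 0.076, and the 973 Olfr sites in repeats 0.067 and 0.06. With libraries scaled by the median ratio of shared sites in place of total CCGG reads, every log2 ratio to undifferentiated cells was lower by 0.076 for untreated and 0.073 for treated cells, so the downstream sites and the sites in repeats were then within counting error of 0.

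**Figure D2:**
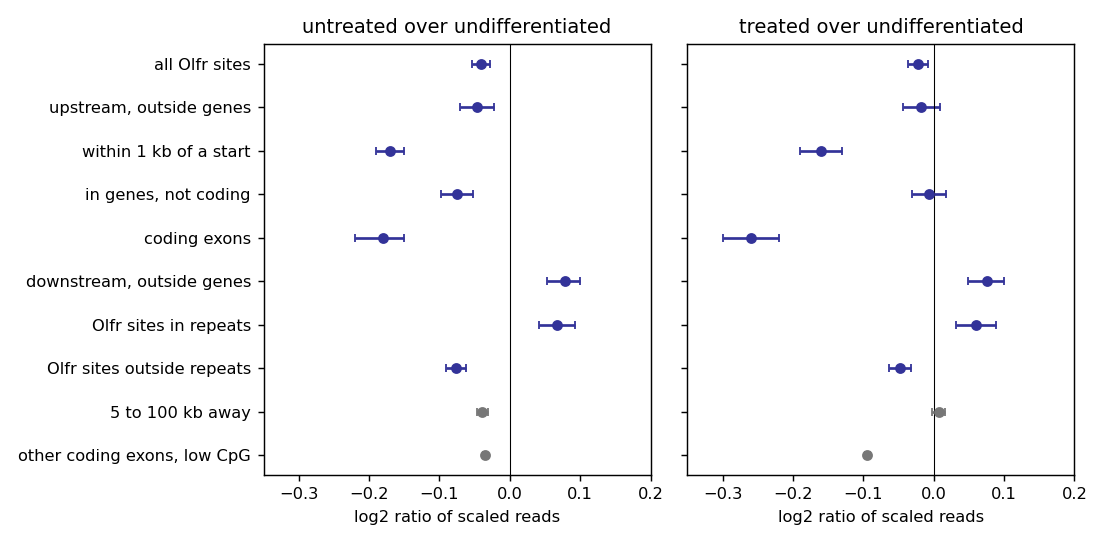
Log2 ratio of scaled reads (x axis) for untreated and treated over undifferentiated cells, by place around the Olfr genes; blue points are Olfr sites, grey points other sites, and bars are 95% intervals for counting error. Coding exons stand at -0.18 and -0.26, other coding exons in low CpG windows at -0.035 and -0.095.

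Coding exons of other genes gave a smaller difference. The 54675 sites in other coding exons in low CpG windows had a log2 ratio of -0.035 for untreated and -0.095 for treated over undifferentiated. Sites near other start sites in low CpG windows gave -0.024 and 0.12. At the 283 Olfr coding sites listed in all libraries, the median log2 ratio was -0.071 (quartiles -0.62 and 0.50) for untreated and -0.15 (-0.81 and 0.48) for treated over undifferentiated. In other coding exons in low CpG windows these medians were 0.044 and 0.0082. The 2 distributions of site ratios overlapped over most of their range, and 47.0% of the Olfr coding sites were higher in untreated than in undifferentiated cells.

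The bases of a fragment moved with these ratios throughout the libraries. Among unique fragments in low CpG windows outside Olfr genes, fragments with a GC content up to 35% had a log2 ratio of treated over undifferentiated of 1.87, those at 55 to 60% of -0.20 and those above 70% of 0.66. Unique Olfr fragments gave 1.49 (1.36 to 1.63), -0.24 (-0.27 to -0.21) and 0.66 (0.56 to 0.76) in the same classes. The treated library thus held more AT-rich and more very GC-rich fragments around Olfr genes and elsewhere, relative to undifferentiated cells. For untreated over undifferentiated cells the Olfr fragments ranged from -0.15 (50 to 55%) to 0.44 (above 70%), and the others from -0.088 to 0.33. Up to 35%, the Olfr fragments gave -0.12 (-0.28 to 0.038) and the others 0.33. Of the Olfr fragments, 24.2% had a GC content of 55 to 60% and 3.49% of up to 35%, against 27.5% and 1.76% of the other fragments.

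**Figure D3:**
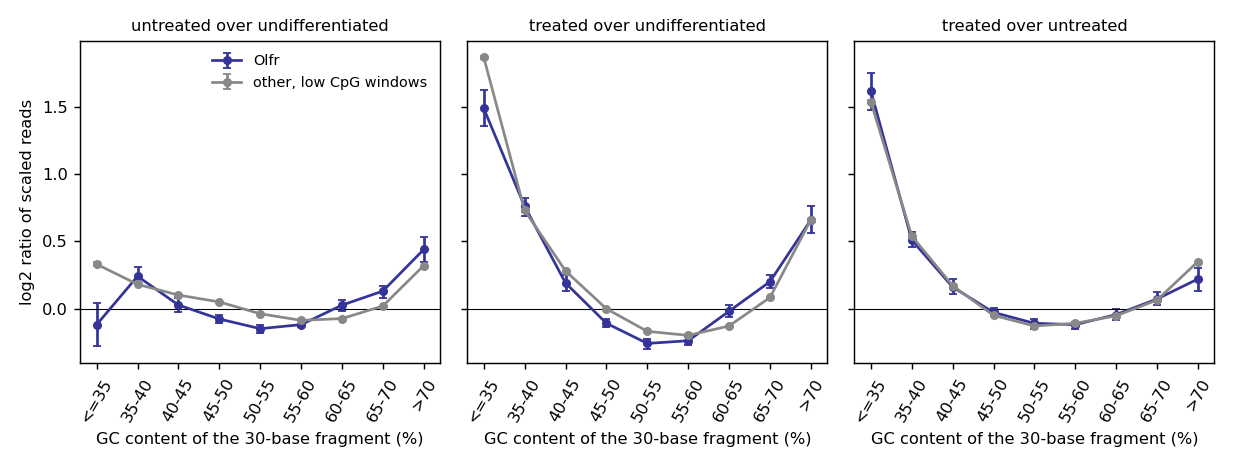
Log2 ratio of scaled reads (y axis) by the GC content of the 30-base fragment (x axis, percent) for unique fragments around Olfr genes (blue) and for other unique fragments in low CpG windows (grey); bars are 95% intervals for counting error. Both sets are highest at the ends of the GC range in the treated library, with 1.49 and 1.87 up to 35%.

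The single base on each side of CCGG also moved with the ratio. Olfr fragments with A before and A after CCGG (T and T on the other strand) had a log2 ratio of -0.37 (-0.41 to -0.34) in untreated over undifferentiated cells, and other fragments with these bases -0.28. Olfr fragments with A before and T after it gave -0.35 and others -0.38. Fragments with C before and G after it stood at the other end, with 0.30 around Olfr genes and 0.37 elsewhere, and with 0.50 and 0.55 in treated over undifferentiated cells. Olfr sites were then compared with other unique fragments in low CpG windows with the same flanking bases and the same number of G and C. Such fragments gave -0.068 for untreated and -0.12 for treated over undifferentiated when weighted as the Olfr coding exons, whose own log2 ratios differed from these by -0.12 (-0.15 to -0.082) and -0.15 (-0.19 to -0.11). At start sites the differences were -0.14 and -0.13, and outside the genes 0.0099 and -0.013. Over all unique Olfr motifs they were -0.035 and -0.04. Coding exons and start sites of other genes were not compared in this way.

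A single sequence recurred at CCGG motifs of the receptor coding exons. The 10 bases tgaCCGGtat surrounded 27 of the 491 reference motifs in Olfr coding exons (5.50%), in 27 different genes, against 321 of 1519513 CCGG motifs on the autosomes (0.0211%). The next most frequent, cctCCGGaat, surrounded 7. The motif began a median of 362 bases from the start of the coding segment (353 to 371), and in 26 of the 27 genes at the same position of the reading frame. This stretch encodes the conserved DRY motif of G protein-coupled receptors, which lies next to the inner end of a membrane helix. Of the 27 fragments, 15 were unique, and 14 of these were listed in each library. Olfr1280, Olfr1281, Olfr1282, Olfr1283, Olfr1286 and Olfr1287 shared 1 identical fragment, and no reads were listed there in any library.

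The listed sites of this recurrent sequence were deep in undifferentiated cells and lower on day 7. Olfr13 had 150, 103 and 56 reads in undifferentiated, untreated and treated cells, Olfr262 had 139, 96 and 59, and Olfr702 had 93, 36 and 36. Olfr382 had 122, 93 and 54 reads, Olfr1333 had 125, 131 and 69, and Olfr1220 was the shallowest with 10, 13 and 10. Scaled to CCGG reads, 12 of the 14 sites listed in both libraries were lower in untreated and 13 of 14 in treated than in undifferentiated cells. Summed over the 15 unique fragments, the reads were 1170, 1002 and 581, a log2 ratio of -0.44 (-0.56 to -0.31) for untreated and -0.71 (-0.86 to -0.57) for treated over undifferentiated, and of -0.28 (-0.43 to -0.13) for treated over untreated. The same 10 bases at 281 unique fragments outside Olfr coding exons also gave lower ratios, -0.60 (-0.64 to -0.55) for untreated and -0.46 (-0.51 to -0.42) for treated over undifferentiated, but 0.13 (0.086 to 0.18) for treated over untreated. The listed sites there had a median of 42.5 reads in undifferentiated cells, against 84 in the Olfr coding exons. The 366 other unique coding motifs of Olfr genes had a median of 32.5 reads, and gave -0.16 and -0.24.

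**Figure D4:**
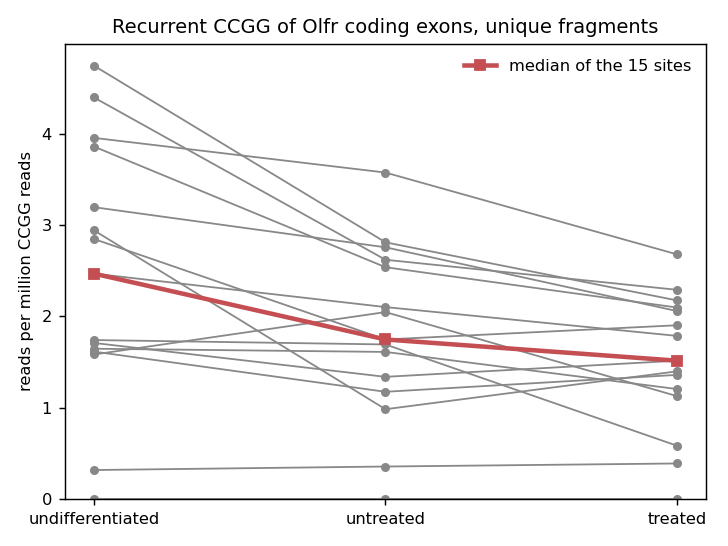
Scaled reads (y axis, reads per 1000000 CCGG reads) in the 3 libraries (x axis) at the 15 unique fragments of Olfr coding exons with the recurrent sequence; each grey line is 1 gene and the red line their median. Of the 14 listed genes, 12 are lower in untreated and 13 in treated than in undifferentiated cells, and 1 gene had no listed reads.

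Clusters were formed by chromosome and megabase. There were 93, and the 67 with at least 10 sites held 3150 of the 3242 sites, with a median of 37 sites. A cluster was counted as higher or lower when its scaled reads differed by at least 1.2-fold. For untreated over undifferentiated cells, 8 clusters were higher (11.9%) and 10 lower (14.9%), while in blocks of 37 consecutive other sites 7.11% were higher and 8.90% lower. Megabases with at least 10 CCGG sites outside the Olfr windows, called other megabases, held a median of 353 such sites. They passed the fold in 0.582% and 0.374%. For treated over undifferentiated cells, 10 clusters were higher (14.9%) and 9 lower (13.4%), against 11.0% and 10.8% of the blocks and 1.21% and 0.166% of other megabases. For treated over untreated cells, 6 were higher (8.96%) and 1 lower (1.49%), against 5.12% and 2.28% of the blocks and 0.208% and 0.0831% of other megabases. The blocks matched the clusters in median size only, since the clusters held 11 to 112 sites, and whether the shares differ was not tested. These counts depend on the scale and the sites: scaled to mapped reads in place of CCGG reads, the clusters higher and lower were 2 and 48, 0 and 61, and 0 and 50 in the 3 comparisons. Without the deepest site of each cluster, 5 rather than 9 were lower for treated over undifferentiated cells, and 11 were higher and 0 lower for treated over untreated cells.

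**Figure D5:**
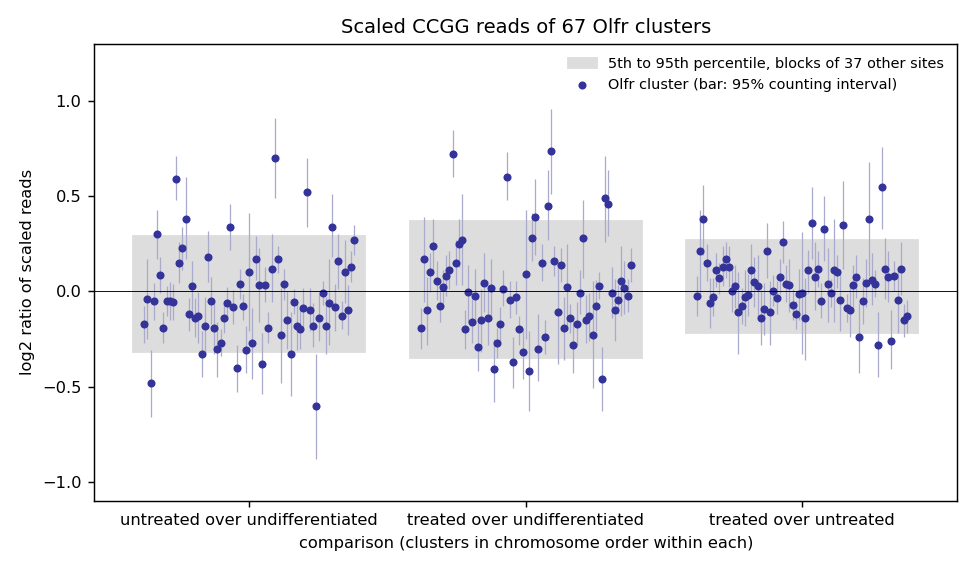
Log2 ratio of scaled reads (y axis) of the 67 Olfr clusters with at least 10 sites, in chromosome order within each of the 3 comparisons (x axis); bars are 95% intervals for counting error and grey boxes the 5th to 95th percentile of blocks of 37 other sites. The first 2 comparisons share the undifferentiated library, and the highest clusters in them reach 0.70 and 0.74.

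The 4 clusters with the most sites differed little between libraries. The cluster at 129 to 130 Mb of chromosome 10 (Olfr763 to Olfr819) had 112 sites and 2871, 3740 and 2612 reads in undifferentiated, untreated and treated cells, with log2 ratios of 0.17 for untreated and 0.16 for treated over undifferentiated. The cluster at 98 to 99 Mb of chromosome 15 (Olfr288 to Olfr278-ps1, 110 sites) gave -0.0083 and 0.029. On chromosome 7, the cluster at 140 to 141 Mb (103 sites) gave -0.079 and -0.20, and that at 103 to 104 Mb (102 sites) gave -0.14 and -0.17. Larger ratios came from smaller clusters, among them the 98 sites at 102 to 103 Mb of chromosome 7, with -0.27 in both comparisons.

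The highest cluster in both comparisons with undifferentiated cells was at 78 to 79 Mb of chromosome 10 (Olfr1358 to Olfr1352), whose 19 sites had 284, 535 and 386 reads. Its log2 ratios were 0.70 (0.49 to 0.91) for untreated and 0.74 (0.51 to 0.96) for treated over undifferentiated, and 0.42 and 0.63 without its deepest site. Of its 11 sites listed in all libraries, 6 were higher in untreated and 7 in treated than in undifferentiated cells. The cluster at 90 to 91 Mb of chromosome 2 (Olfr1262 to Olfr1274-ps) had 924, 1618 and 1244 reads at 36 sites, with ratios of 0.59 and 0.72. The site near Olfr1274-ps shown above, with 181, 585 and 514 reads, carried much of this, and without it the ratios were 0.26 and 0.27. On chromosome 11, the 14 sites at 87 to 88 Mb (Olfr462 to Olfr464) gave 0.52 for untreated over undifferentiated. They were among the lowest for treated over untreated, with -0.24 (-0.01 without the deepest site), and both ratios contain the untreated library. On chromosome 7, the 41 sites at 105 to 106 Mb (Olfr673-ps1 to Olfr692) had 954, 1404 and 1181 reads and gave 0.60 for treated over undifferentiated. In that cluster 23 of the 32 sites listed in all libraries were higher in treated cells.

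The lowest cluster for untreated over undifferentiated cells held the 11 sites around Olfr750 on chromosome 14 (51 to 52 Mb), with 261, 199 and 182 reads and a log2 ratio of -0.60 (-0.88 to -0.33). The clusters at 174 to 175 Mb of chromosome 1 (Olfr433 to Olfr220) and at 107 to 108 Mb of chromosome 7 (Olfr2 to Olfr477) followed with -0.48 and -0.40. Of their sites listed in all libraries, 8 of 14 and 14 of 29 were higher in untreated cells. For treated over untreated cells, the clusters on chromosomes 14 and 1 were among the 3 highest, each with 0.38 (0.61 on chromosome 14 without the deepest site). Both ratios contain the untreated library, so a low count there lowers the one and raises the other. The highest in that comparison was at 19 to 20 Mb of chromosome 16 (Olfr164 to Olfr171), with 310, 345 and 354 reads at 21 sites and a ratio of 0.55 (0.33 to 0.76). For treated over undifferentiated cells, the 23 sites at 3 to 4 Mb of chromosome 16 (Olfr161 to Olfr15) gave -0.46, the 15 sites at 18 to 19 Mb of chromosome 9 gave -0.42 and the 16 sites around Olfr520 and Olfr521 on chromosome 7 gave -0.41, which was -0.14 without the deepest site. The chromosome 16 cluster at 3 to 4 Mb was also the lowest for treated over untreated cells, with -0.28 (-0.14 without its deepest site). The cluster at 33 to 34 Mb of chromosome 17 (Olfr55 to Olfr63) gave -0.26.

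Of the 355 Olfr genes with at least 4 sites and 100 reads over the libraries, 9 were higher (2.54%) and 17 lower (4.79%) by at least 2-fold in untreated than in undifferentiated cells. Among blocks of 5 consecutive other sites with as many reads, 2.89% were higher and 3.72% lower. In treated over undifferentiated cells 22 genes were higher (6.20%) and 17 lower (4.79%), against 5.84% and 3.87% of the blocks. In treated over untreated cells 7 were higher (1.97%) and 2 lower (0.563%), against 2.21% and 0.400%. The blocks had the median number of sites of these genes, which held at least 4 and up to 36.

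Some genes differed at more than 1 site. Olfr145 had sites with 140, 32 and 7 reads, with 101, 47 and 28, with 26, 6 and 0 and with 0, 6 and 0, in undifferentiated, untreated and treated cells. Olfr122 had 36, 0 and 10 reads, 33, 30 and 26, 69, 20 and 24, and 20, 0 and 0 at its 4 sites. Around Olfr804, sites had 55, 0 and 0 reads and 45, 17 and 0 reads, while its other sites had 6, 8 and 5 and 0, 10 and 0 reads. Olfr1480 went the other way, with 17, 72 and 48 reads, 5, 11 and 32 reads, 8, 8 and 20 reads and 5, 6 and 15 reads. Olfr518 had sites of 6, 81 and 47, of 44, 94 and 40, of 5, 20 and 19 and of 0, 0 and 5 reads. The 4 sites of Olfr1273-ps had 12, 23 and 10, 15, 50 and 26, 0, 6 and 5, and 0, 35 and 36 reads, and 2 of them were shared with Olfr1272. Around Olfr480, the sites had 19, 0 and 0, 76, 13 and 0, 59, 61 and 38 and 0, 0 and 5 reads. Olfr1487 had 82, 134 and 34 reads and 66, 122 and 50 reads at its deepest sites, both higher in untreated cells, and 6, 0 and 0 and 12, 0 and 0 at the others.

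Genes with the most sites showed smaller differences. Olfr56 had 1049, 1396 and 814 reads at 36 sites, Olfr643 had 704, 705 and 476 at 31, and Olfr718-ps1 had 922, 974 and 740 at 28. Olfr279 had 638, 738 and 507 at 23 sites, and Olfr70 had 479, 529 and 390 at 19. For untreated over undifferentiated cells, the log2 ratio was 0.20 (0.082 to 0.32) for Olfr56 and -0.21 (-0.36 to -0.059) for Olfr643.

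At single sites, 335 of the 2433 Olfr sites listed in both libraries (13.8%) were at least 2-fold higher and 408 (16.8%) 2-fold lower in untreated than in undifferentiated cells, against 14.5% and 15.9% of the other sites. For treated over undifferentiated cells 466 of 2365 (19.7%) were higher and 355 (15%) lower, against 19.2% and 15.3%. For treated over untreated cells 314 of 2467 (12.7%) were higher and 100 (4.05%) lower, against 11.7% and 5.10%. The site near Olfr547 had 105, 5 and 11 reads. The site inside Olfr54 had 76 reads in undifferentiated cells and was not listed on day 7, at least 22.0-fold lower in untreated and 15.5-fold lower in treated cells when an unlisted site is set to 4 reads. The site near Olfr283 had 79, 5 and 0 reads. These 3 sites were the lowest in untreated over undifferentiated cells. The highest were near Olfr518 (6, 81 and 47 reads), Olfr985 (6, 70 and 51) and Olfr825 (0, 44 and 18). Near Olfr1389, reads were 0, 18 and 46, at least 14.1-fold higher in treated than in undifferentiated cells. A site inside both Olfr139 and Olfr399, in a coding exon of at least 1 of them, had 11, 52 and 5 reads. This was the lowest ratio of treated over untreated cells with unlisted sites set to 4 reads. A site near Olfr1510 had 29, 32 and 0 reads, so its ratio can be lower still. The site inside Olfr109 had 28, 0 and 38, the highest ratio on the same setting.

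The other chemosensory receptor families were measured in the same way. Taar genes encode amine receptors of the nose, and the 44 sites around them held 55.8, 47.7 and 43.2 scaled reads, a log2 ratio of -0.23 (-0.32 to -0.13) for untreated and -0.37 (-0.48 to -0.26) for treated over undifferentiated. Vmn1r and Vmn2r genes encode vomeronasal receptors, and their 638 and 853 sites gave -0.052 and -0.013 for untreated and -0.026 and 0.089 for treated over undifferentiated cells. Among unique motifs around Vmn1r genes, 74.0%, 70.3% and 71.6% were listed in undifferentiated, untreated and treated cells, and around Vmn2r genes 64.9%, 62.8% and 62.7%. Against other fragments with the same flanking bases and GC content, the log2 ratios of Taar genes differed by -0.15 and -0.25, those of Vmn1r genes by -0.049 and -0.062, and those of Vmn2r genes by -0.032 and 0.024 (-0.0046 to 0.053).

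Genes that serve the odorant receptors were taken as a list of 15, by the same windows. For untreated over undifferentiated cells 1 was higher and 2 lower by at least 1.2-fold, with a median log2 ratio of -0.08. Of the 16261 other protein coding genes with 8 to 238 sites, the range of the list, 11.3% were higher and 13.7% lower. For treated over undifferentiated cells 3 of the 15 were higher and 3 lower, against 16.9% and 15.1% of the other genes, and for treated over untreated 3 and 1, against 11.7% and 5.72%. Around Omp, the marker of mature olfactory neurons, reads were 603, 479 and 415, and around Rtp2, a chaperone that brings receptors to the membrane, 487, 423 and 301. Both were lower in untreated than in undifferentiated cells by this fold, with log2 ratios of -0.55 and -0.42. Around Rtp1, the related chaperone, reads were 175, 268 and 218, and the ratio was 0.40. For treated over undifferentiated cells, Adcy3, the adenylyl cyclase of odorant signalling, gave -0.35, Rtp2 -0.40 and Stoml3, a membrane protein of olfactory cilia, -0.45, while Rtp1 gave 0.61, Lhx2 1.05 and Emx2 0.95. Around Lhx2 and Emx2, transcription factors that act on Olfr promoters and in other developing tissues, reads were 1092, 1349 and 1844 and 472, 609 and 741. The log2 ratio of treated over untreated was 0.30 for Omp, -0.27 for Stoml3, 0.96 (0.86 to 1.06) for Lhx2 and 0.79 (0.63 to 0.95) for Emx2. The 67 Olfr clusters with at least 10 sites, which are megabases and not single genes, reached at most 0.55. All sites within 1 kb of start sites of other coding genes together gave 0.18.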

How the data were processed

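MethylRAD lists of the undifferentiated, untreated and treated samples were used. Per the labels and the methods, the authors trimmed the reads, checked them with FastQC (0.11.3 in the submitters' processing notes, a later version in the methods), mapped them to GRCm38 with Bowtie2 2.3.3, kept unique matches and deposited a raw read count per site and an RPM value, the count scaled to the mapped reads. The counts were used. Autosomal CCGG rows of the 3 lists were joined by position, and an unlisted site counted as 0 reads (4 for the bound of a single site or gene). Reads were scaled to the CCGG reads of each list. Fragments were the 30 bases centred on the reference motif, matched exactly on both strands of the autosomes, X and Y.

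Listing shares have Wilson intervals and ratios of sums exact conditional (Clopper-Pearson) intervals. The lists hold 40176194, 45216192 and 42020661 reads. Clusters named were the 4 with the most sites and the 3 highest and lowest per comparison. Genes and sites were the highest and lowest by log2 ratio (genes with at least 4 sites and 100 reads, sites with at least 30 reads in 1 of the 2 libraries) and those with the most sites or reads. A selection of these is given. The members, lists and rules were chosen with earlier results of these data known. The recurrent coding sequence, flanking bases and fragment GC content were chosen after seeing the data. Scripts ran in Python 3.11.15 with SciPy 1.17.1, pandas 2.3.3, matplotlib 3.10.9 and numpy 2.4.6. Overlap and interval functions were tested on simulated data.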

Additional observations from a re-analysis of the deposited data

Results flagged for a closer look

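The CCAGG rows of the lists, which no comparison above used, were listed more often in the treated than in the undifferentiated library. Of 20386 CCAGG motifs around Olfr genes, 3.19% were listed in undifferentiated and 12% (11.6 to 12.4%) in treated cells, against 7.28% and 24.2% of the other CCAGG motifs, which is 3.76 times as many around Olfr genes and 3.32 times as many elsewhere. The deposited untreated list holds the same CCAGG counts as the undifferentiated list, with 650 of 650 equal around Olfr genes and 262426 of the 262495 listed elsewhere, so its CCAGG rows were not taken as a measurement of the untreated cells. Whether the higher CCAGG listing is particular to the treated library therefore cannot be told from these lists. The treated library also held more reads at AT-rich CCGG fragments, and the part of base composition in the CCAGG listing was not tested.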

How the results depend on the processing

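Of 108 values under other settings, 51 stayed within the counting interval of the reported value (for counts, within 1.5 times) and 57 moved. No paired analysis was possible because there was 1 library per condition, and leaving out a replicate was not possible for the same reason. Values are for undifferentiated, untreated and treated cells, or for untreated over undifferentiated, treated over undifferentiated and treated over untreated. The listing was 53.6%, 52.7% and 53.5% inside the genes, 37.3%, 37.0% and 37.6% with 10 kb on each side, 35%, 34.3% and 33.4% at 10 or more reads, and 72.9%, 70.8% and 70.4% for unique fragments (added after seeing the data, as were the settings on fragments, flanking bases and deepest sites). At the smallest CCGG total, that of the treated library, it was 40.2%, 38.1% and 41.6%, against 52.4%, 51.3% and 55.8% of other motifs.

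The log2 change around Olfr genes was -0.11 and -0.081 inside the genes, alone and against other sites. Scaled to mapped reads it was -0.36, -0.72 and -0.36, while all CCGG reads, on the same scale, fell by 0.32, 0.69 and 0.38. With the median ratio of shared sites it was -0.12 and -0.094. For sites listed in all 3 lists it was 0.019, -0.0063 and -0.026, so the direction of the change taken alone was not stable. With 10 kb it was -0.0075 for treated over undifferentiated, and -0.0069 against other sites. Against sites 5 to 100 kb away it was -0.0022 for the first and -0.027 for the third comparison. Against GC-matched sites it was -0.054 and -0.037 for the first 2. Against other sites, over sites listed in all lists, it was -0.015, -0.0017 and 0.013, with the signs of the reported -0.041, -0.021 and 0.02. With the same flanking bases and fragment GC content it was -0.04 for treated over undifferentiated and -0.0091 for treated over untreated, against 0.02 as reported.

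Clusters higher and lower were 8 and 10, 10 and 9, and 6 and 1 as reported. Scaled to mapped reads they were 2 and 48, 0 and 61, and 0 and 50. Joined over gaps of up to 1 Mb they were 3 and 5, 4 and 3, and 3 higher in the third comparison. With at least 30 sites they were 4 and 3, 3 and 3, and 0 and 0. The median ratio gave 15 lower for treated over undifferentiated. Without the deepest site, 5 were lower for treated over undifferentiated, and 11 were higher and 0 lower for treated over untreated. Depth limits single sites: a median of 22 to 28 reads leaves wide counting error, and unlisted sites can have had up to 4 reads.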
